A study of Sus scrofa with 30 samples.

Results

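The genes described here are 7 genes of slow skeletal muscle fibres, measured by 9 probe sets of the Affymetrix Porcine Genome array in pig teats: MYH7, MYL2, TNNT1, TNNI1, TNNC1, ACTN2 and CA3. A probe set was taken as a member where the platform table gave it exactly 1 symbol and that symbol was one of the 7 genes. ACTN2 and CA3 have 2 such probe sets each, numbered 1 and 2 here with the higher mean over the 30 arrays first, and the other genes have 1 each. The array holds 24123 probe sets, and its single-symbol probe sets cover 6765 genes. The 7 genes were picked with their values on these arrays in view, so their levels are given as a description, and no test on them is independent evidence. Each level was also read against MYLPF, the regulatory light chain of fast myosin, on the same array.

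Skeletal muscle fibres contain either slow or fast forms of the proteins of the contractile unit, each form encoded by its own gene. Slow fibres contract slowly, rely on oxidative metabolism and resist fatigue, whereas fast fibres contract quickly and rely more on glycolysis. Slow and fast fibres lie side by side in most muscles, including the thin sheet of cutaneous muscle under mammalian skin, and several slow-fibre genes are also active in the heart.

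The arrays came from teats of 10 peripubertal pigs of commercial dam lines, sampled at slaughter at a mean end weight of 110 kg. Teats were classed as normal or inverted by inspection and palpation, and animals as affected if they belonged to the group with inverted teats. Animals 950, 957, 1040, 1058 and 1109 were non-affected and gave a normal teat each, and animals 963, 964, 1037, 1059 and 1103 were affected and gave both a normal and an inverted teat. Epithelial and mesenchymal tissue of each teat were hybridised separately, 1 array per sample, from 500 ng of total RNA, which gives 6 groups of 5 arrays. The Large White x German Landrace cross supplied 6 animals (950, 964, 1037, 1040, 1058 and 1059). German Landrace supplied animals 957 and 963. Animals 1103 and 1109 belonged to the cross Pietrain x (Large White x German Landrace). No treatment, transgene or pooling is named in the labels, and the age and sex of the animals are not given in the sources used here.

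Values are deposited probe set summaries on a log2 scale, so a difference of 1 is a doubling of signal. The 30th percentile of each array, between 4.49 and 4.83, was used as the mark of a value near background. Probe sets above that mark on at least 5 arrays of a comparison were tested, and a difference was called where limma's Benjamini-Hochberg adjusted p over all probe sets tested was under 0.05. Because probe sets differ in sensitivity, the level of 1 probe set was not set against that of another. A value minus MYLPF has no meaning by itself, and its change between arrays was used. Tissue pieces hold many cell types, so a lower value can come from fewer muscle fibres or from less RNA per fibre, which cannot be told apart here.

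The fast reference MYLPF varied widely between arrays. In mesenchymal tissue MYLPF lay above the 30th percentile on 13 of 15 arrays, at 11.57 to 13.48. It read 1.15 in the normal teat of animal 1040 and 3.83 in the inverted teat of animal 963. On these 2 arrays the other measured skeletal muscle markers were also low: TNNT3 was listed at 0 on both, TNNC2 read 3.55 to 3.71, MYH2 read 1.63 to 2.63, KLHL41 read 2.31 to 2.92 and CKM, the muscle creatine kinase, read 4.60 to 4.93. These 2 are the MYLPF-poor mesenchymal arrays. In epithelial tissue MYLPF lay above the 30th percentile on 8 of 15 arrays, at 5.33 to 11.68, and at 0 to 2.02 on the other 7. ACTA1, a further skeletal muscle marker, was not measured by a single-symbol probe set.

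MYH7 encodes the slow (beta) myosin heavy chain, the motor of slow fibres and of the heart ventricle. In mesenchymal tissue of non-affected animals 950, 957, 1040, 1058 and 1109 it read 6.91, 7.27, 4.0, 7.81 and 5.65. In normal teats of affected animals 963, 964, 1037, 1059 and 1103 it read 7.28, 6.99, 7.25, 10.36 and 5.88, and in inverted teats of the same animals 3.48, 8.13, 8.66, 7.92 and 5.14. The 3 groups overlapped, the highest array being the normal teat of animal 1059 and the lowest the MYLPF-poor inverted teat of animal 963. Group means were 6.33 ± 1.52 (SD, n = 5) in non-affected animals, 7.55 ± 1.67 (SD, n = 5) in normal and 6.67 ± 2.25 (SD, n = 5) in inverted teats of affected animals. The difference between inverted and normal teats of affected animals was -0.89 ± 1.03 (SE).

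Its partner MYL2, the regulatory light chain of slow and ventricular myosin, ran from 1.90 to 10.80 over the 15 mesenchymal arrays, with a median of 7.29. The lowest value came from the inverted and the highest from the normal teat group of affected animals, and the groups overlapped. Means were 5.88 ± 2.04 (SD, n = 5) in non-affected animals, 7.64 ± 2.01 (SD, n = 5) in normal and 5.96 ± 3.09 (SD, n = 5) in inverted teats of affected animals, and inverted minus normal teats gave -1.68 ± 1.36 (SE).

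The slow troponin complex, which switches the thin filament on when calcium rises, was measured for all 3 subunits. TNNT1 encodes the subunit that binds tropomyosin, TNNI1 the inhibitory subunit and TNNC1 the calcium sensor, which slow fibres share with the heart. TNNT1 read 6.14, 6.39, 0.75, 7.27 and 2.72 in mesenchymal tissue of non-affected animals 950, 957, 1040, 1058 and 1109. In affected animals 963, 964, 1037, 1059 and 1103 it read 7.44, 6.54, 7.19, 10.48 and 4.50 in normal teats, and 0.56, 7.90, 8.76, 7.47 and 2.42 in inverted teats. Low arrays were the 2 MYLPF-poor ones together with those of animals 1109 and 1103, and each group held both low and high arrays apart from the normal teats of affected animals, whose lowest value was 4.50. Means were 4.65 ± 2.79, 7.23 ± 2.15 and 5.42 ± 3.68 (SD, n = 5 each), and inverted minus normal teats gave -1.81 ± 1.64 (SE).

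TNNC1 read 7.22, 6.64, 4.14, 7.74 and 5.95 in mesenchymal tissue of non-affected animals in the same order. It read 9.92, 7.27, 7.72, 10.39 and 6.51 in normal teats and 2.44, 8.53, 9.17, 8.24 and 2.59 in inverted teats of affected animals. The inverted teats of animals 963 and 1103 thus lay below every other mesenchymal array, while the other 3 inverted teats lay within the range of the normal ones. TNNC1 had the largest difference between inverted and normal teats of the 9 probe sets, at -2.17 ± 1.30 (SE). TNNI1 ran from 0 to 9.41 with a median of 5.88. Its means were 4.39 ± 2.62, 6.63 ± 1.90 and 5.29 ± 2.43 (SD, n = 5 each) in the same group order, with -1.35 ± 1.31 (SE) between inverted and normal teats.

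ACTN2, which cross-links actin at the Z-disc of cardiac muscle and of slow and fast skeletal fibres, was measured by both of its probe sets. Probe set 1 read 5.38 to 10.22 and probe set 2 read 2.92 to 10.81 over the mesenchymal arrays, and they correlated with r = 0.95 over these 15 arrays. Group means of probe set 1 were 7.66 ± 1.70, 8.32 ± 1.26 and 7.69 ± 1.87 (SD, n = 5 each). CA3 encodes carbonic anhydrase III, an abundant cytosolic protein of slow fibres and also of fat cells. Its probe set 1 spanned 10.07 to 12.25 over the 15 mesenchymal arrays, and probe set 2 spanned 9.78 to 12.20, both narrower than the ranges of the 7 other probe sets. Group means of its probe set 1 were 11.83 ± 0.19, 11.62 ± 0.70 and 11.46 ± 0.81 (SD, n = 5 each), so CA3 did not share the wide spread of the 5 slow myosin and troponin genes.

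**Figure D1:**
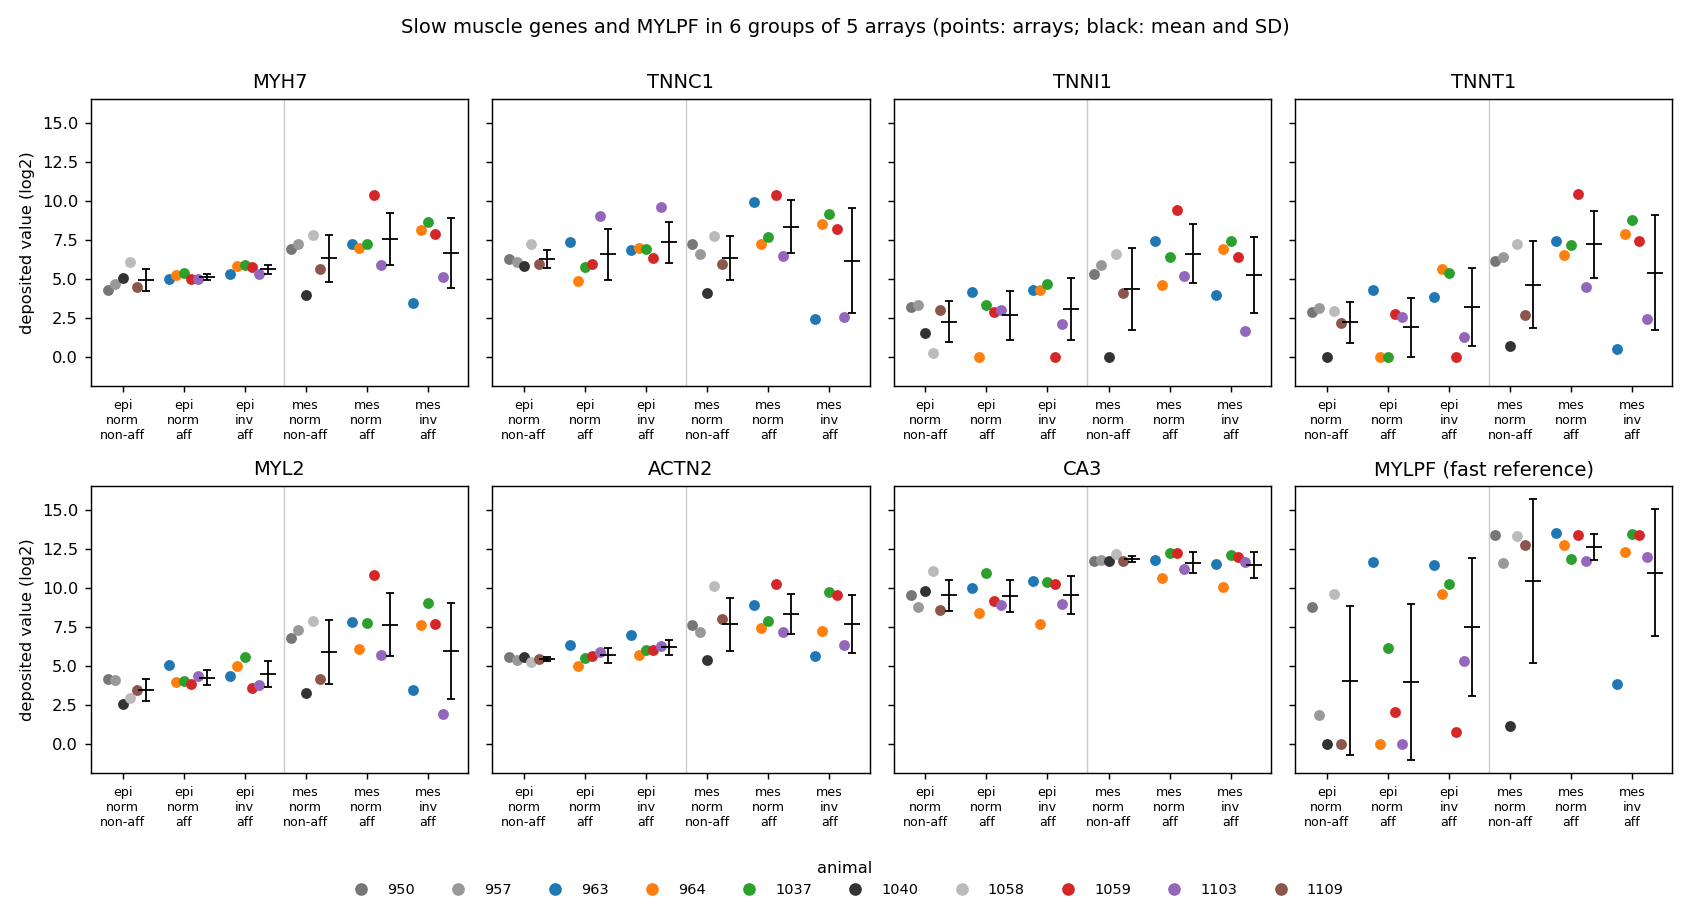
Deposited log2 value (vertical axis) of each slow gene and of MYLPF on 30 arrays, by tissue (epi, epithelial and mes, mesenchymal), teat (norm, normal and inv, inverted) and animal status (aff, affected and non-aff, non-affected). Points are arrays coloured by animal and black marks are the mean and SD of 5 arrays; ACTN2 and CA3 are shown by probe set 1. In mesenchymal tissue MYH7 spans 3.48 to 10.36 and CA3 10.07 to 12.25.

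None of the 9 member probe sets was called between teat groups in mesenchymal tissue, which does not show that the groups are alike. For the inverted against the normal teats of affected animals 0% of the 17850 probe sets tested were called, and the members' adjusted p-values were all 1; 78 probe sets had an unadjusted p under 0.05, none of them a member. Without both MYLPF-poor arrays the differences of the 5 myosin and troponin genes shrank, to -0.093 for MYH7, -1.06 for MYL2, -0.59 for TNNT1, -1.02 for TNNI1 and -1.23 for TNNC1. Of these arrays only the inverted teat of animal 963 belongs to this comparison, and the normal teat of that animal was kept. For normal teats of affected against non-affected animals 0% of 17850 were called as well, with 201 probe sets at an unadjusted p under 0.05, and no member among them. The 5 myosin and troponin genes were 1.22 to 2.57 higher in affected animals in that comparison, with SE from 1.03 to 1.64. For inverted teats of affected against normal teats of non-affected animals 0% of 17850 were called, with 219 at an unadjusted p under 0.05, and the members' differences lay between -0.44 and 0.89. The 3 comparisons share arrays pair by pair, so they are not separate pieces of evidence. All 9 members were tested in mesenchymal tissue. Animal was not a term of the fit, so the SE and p-values of inverted against normal teats leave out the pairing. With the animal as a replicate block (consensus correlation 0.51) no member was called either.

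Array by array, the 5 slow myosin and troponin genes moved together. With arrays ranked from high to low for each gene, the normal teat of animal 1059 was first for all 5, the inverted teat of animal 1037 ranked between 2 and 3, and the teat of non-affected animal 1109 was at 12 for all 5. Ranks 13 to 15 were held for all 5 genes by the 2 MYLPF-poor arrays and the inverted teat of animal 1103, on which MYLPF read 11.98. Over the 13 mesenchymal arrays with MYLPF above the 30th percentile, the 10 pairs among the 5 genes had Pearson r between 0.84 and 0.98, with a median of 0.93. On the same arrays their r with MYLPF was 0.46 to 0.58, with ACTN2 (probe set 1) 0.69 to 0.75 and with CA3 (probe set 1) 0.15 to 0.28. The fast genes MYLPF, TNNC2, TNNI2 and TNNT3 had r between 0.93 and 0.98 among themselves. These are descriptions: all genes of an array share its RNA and its muscle content, and 4 of the affected animals contribute 2 arrays each to the 13.

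The slow genes, and the fast heavy chain MYH2, varied on the mesenchymal arrays where MYLPF was highest. On the 6 mesenchymal arrays where MYLPF read 13.34 to 13.48, a range of 0.14, MYH7 ran from 6.91 to 10.36, MYL2 from 6.81 to 10.80, TNNT1 from 6.14 to 10.48, TNNI1 from 5.36 to 9.41 and TNNC1 from 7.22 to 10.39. Among the fast genes TNNC2, the calcium sensor, spanned 13.29 to 13.39 on these arrays, TNNI2 12.30 to 13.04, TNNT3 12.26 to 13.56 and MYH2 7.99 to 13.64. MYH2 thus had a wider range than any of the 5 slow genes, but only through its lowest value, from the inverted teat of animal 1037. On the other arrays of this set MYH2 lay near its upper end. The highest value of each of the 5 slow genes came from the normal teat of animal 1059. CA3 (probe set 1) spanned 11.73 to 12.25. These 6 arrays were picked for MYLPF above 13, so the narrow MYLPF range follows in part from that choice. On each of them only 15 to 32 probe sets read higher than MYLPF and 18 to 34 higher than TNNC2. Whether such high readings are compressed was not tested. The same limit applies to the other comparisons of high MYLPF and TNNC2 values given here.

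**Figure D2:**
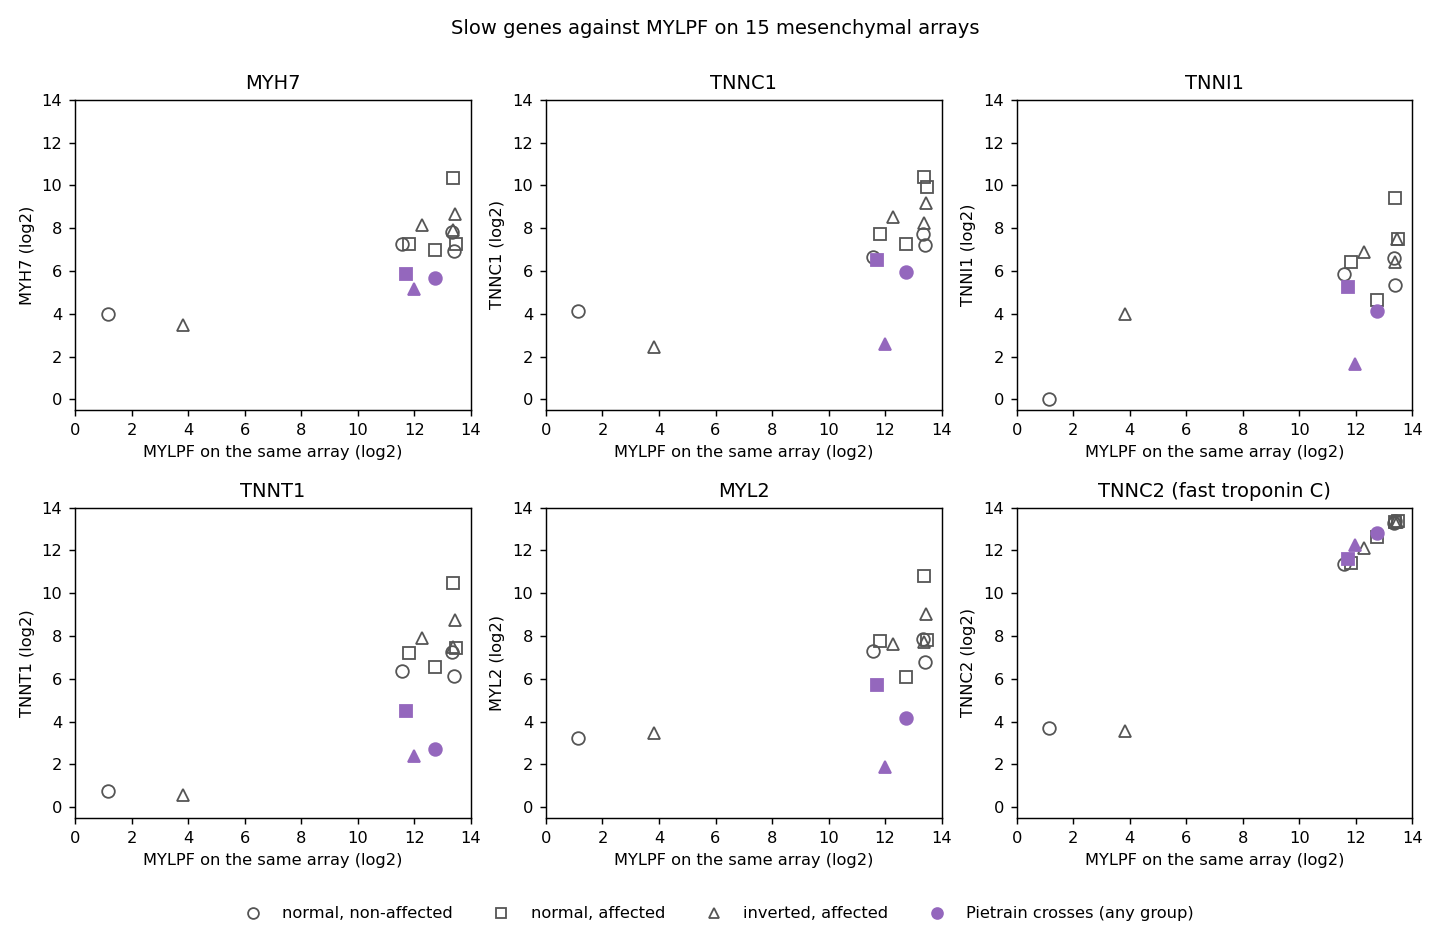
Log2 value of 5 slow genes and of the fast gene TNNC2 (vertical axes) against MYLPF on the same array (horizontal axes, log2) for 15 mesenchymal arrays. Marker shape gives the group and filled markers are Pietrain crosses. TNNC2 follows MYLPF closely, whereas MYH7 runs from 6.91 to 10.36 on the arrays where MYLPF is 13.34 to 13.48.

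Relative to MYLPF, the teat groups overlapped for every member on the 13 arrays that carry fast muscle signal. MYH7 minus MYLPF was -5.85 ± 1.22 (SD, n = 4) in non-affected animals, -5.08 ± 1.30 (SD, n = 5) in normal and -5.30 ± 1.16 (SD, n = 4) in inverted teats of affected animals. TNNC1 minus MYLPF was -5.87 ± 0.79 (SD, n = 4), -4.27 ± 1.06 (SD, n = 5) and -5.63 ± 2.58 (SD, n = 4), and TNNT1 minus MYLPF was -7.12 ± 2.10, -5.40 ± 1.67 and -6.13 ± 2.38 with the same numbers of arrays. The highest of the 3 means was that of normal teats of affected animals for all 5 slow myosin and troponin genes. It lay less than 1 SD of that group above the next highest mean, except for TNNC1. Above the lowest mean it lay more than 1 SD for TNNC1 and TNNT1. For comparison, TNNC2 minus MYLPF had group means of -0.04 ± 0.11, -0.17 ± 0.16 and 0.00 ± 0.19 (SD). ACTN2 (probe set 1) minus MYLPF had close means of -4.53, -4.31 and -4.55.

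Tested over the 15 mesenchymal arrays on values minus MYLPF, 0% of 17849 probe sets were called in each of the 3 comparisons. At an unadjusted p under 0.05 there were 0 for inverted against normal teats, 4 for normal teats of affected against non-affected animals and 0 for inverted teats against non-affected animals. Inverted minus normal teats gave -0.51 to 1.5 over the 9 probe sets, with a median of 0.43 beside 1.72 over all probe sets, an SE of 2.46 and a lowest adjusted p of 0.602. That direction rests on the MYLPF-poor inverted teat of animal 963, where a low MYLPF value lifts every difference. The other MYLPF-poor array, of animal 1040, is in neither of these groups. Without both arrays the same comparison gave -1.36 to -0.22, with all 9 probe sets below 0 and an adjusted p of 1. It then set 4 inverted against 5 normal teats, the normal teat of animal 963 being kept. With MYLPF as a covariate the range was -1.52 to -0.13 with all 9 below 0 and an adjusted p of 1, and with the mean of TNNT3, TNNC2 and MYH2 in place of MYLPF it was -0.34 to 1.67 with a lowest adjusted p of 0.564. Thus no slow gene passed the test relative to fast muscle under any of these settings, and the sign of the differences changed with the setting. Subtracting MYLPF puts its spread between arrays into every probe set, so over all 15 arrays that test could hardly call any gene. No conclusion about the slow genes is drawn from it. Normal teats of affected minus non-affected animals gave -2.49 to 0.38 over all arrays, beside a median of -2.21 over all probe sets, and -0.20 to 1.72 without the MYLPF-poor ones.

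**Figure D3:**
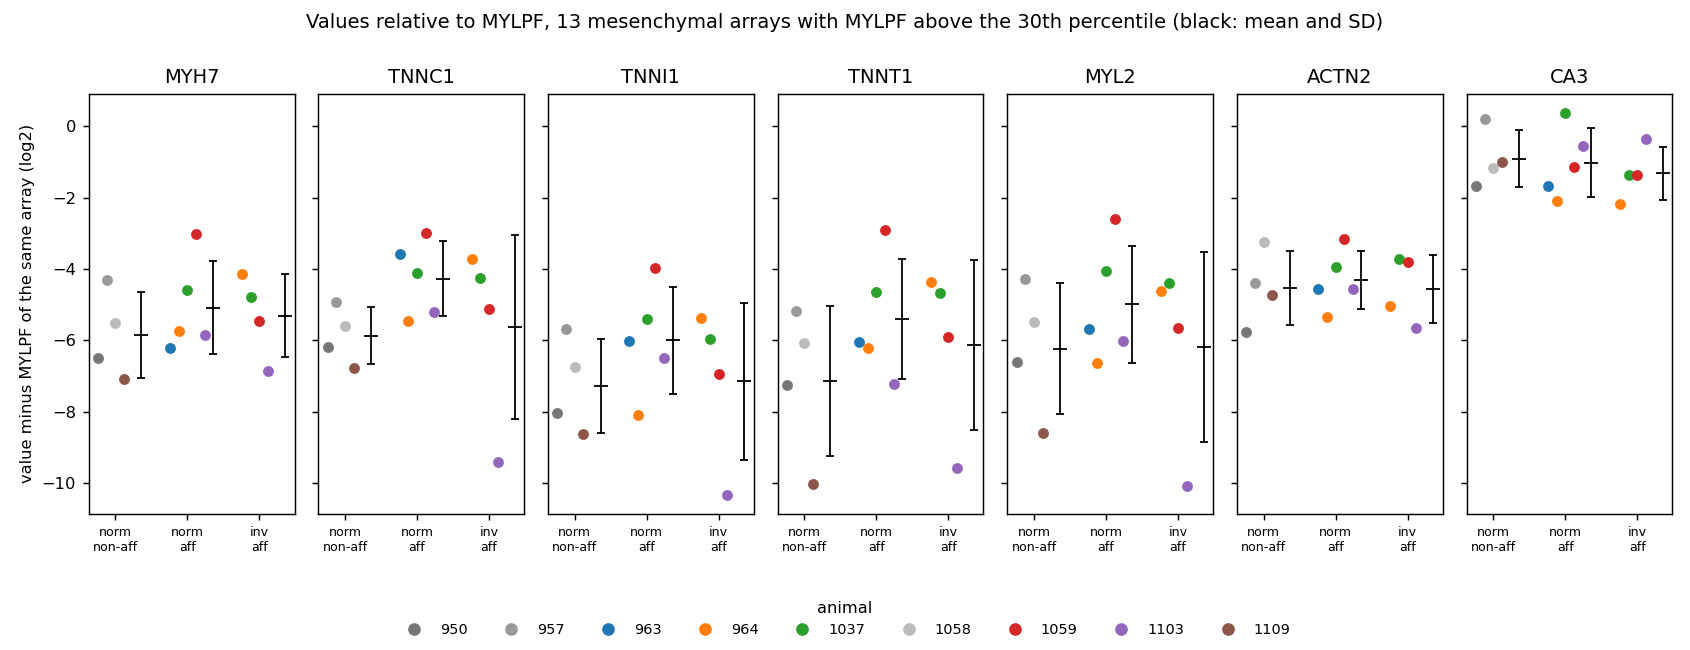
Value of each slow gene minus MYLPF of the same array (vertical axis, log2) on the 13 mesenchymal arrays with MYLPF above the 30th percentile, by teat and animal status. Points are arrays coloured by animal and black marks are mean and SD (n = 4, 5 and 4). The groups overlap for every gene; for MYH7 the means are -5.85, -5.08 and -5.30.

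Each slow gene was also set against its direct fast counterpart on these 13 arrays. The SD over arrays of the slow minus fast difference was 2.71 for MYH7 against MYH2, 1.97 for MYL2 against MYLPF, 1.78 for TNNC1 against TNNC2, 1.61 for TNNI1 against TNNI2 and 1.95 for TNNT1 against TNNT3. For MYH7 against MYH2, the fast IIa heavy chain, the range ran from -6.04 to 2.39. The upper end came from animal 1037, whose MYH2 read 4.86 in the normal and 7.99 in the inverted teat although MYLPF read 11.83 and 13.44. All 3 groups overlapped for each of the 5 pairs. ACTN3, the fast counterpart of ACTN2, was not analysed here.

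Both teats of an affected animal can be compared within the animal. In mesenchymal tissue of animals 963, 964, 1037, 1059 and 1103, MYH7 differed between the inverted and the normal teat by -3.80, 1.13, 1.41, -2.44 and -0.75. TNNC1 differed by -7.48, 1.26, 1.46, -2.15 and -3.93, and MYL2 by -4.34, 1.54, 1.28, -3.09 and -3.81. All 5 slow myosin and troponin genes were higher in the inverted teat of animals 964 and 1037 and lower in that of animals 963, 1059 and 1103. MYLPF differed by -9.66, -0.47, 1.60, -0.01 and 0.26 in the same order. In animal 963 slow and fast genes were low together, since its inverted teat was MYLPF-poor. In animal 1059 MYLPF and TNNC2 differed by -0.01 and 0.01, while the 5 slow genes differed by -3.09 to -2.15; in animal 964 the slow genes were 1.13 to 2.26 higher while MYLPF was 0.47 lower. The pair differences in CA3 (probe set 1) were small by comparison, from -0.57 to 0.44.

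**Figure D4:**
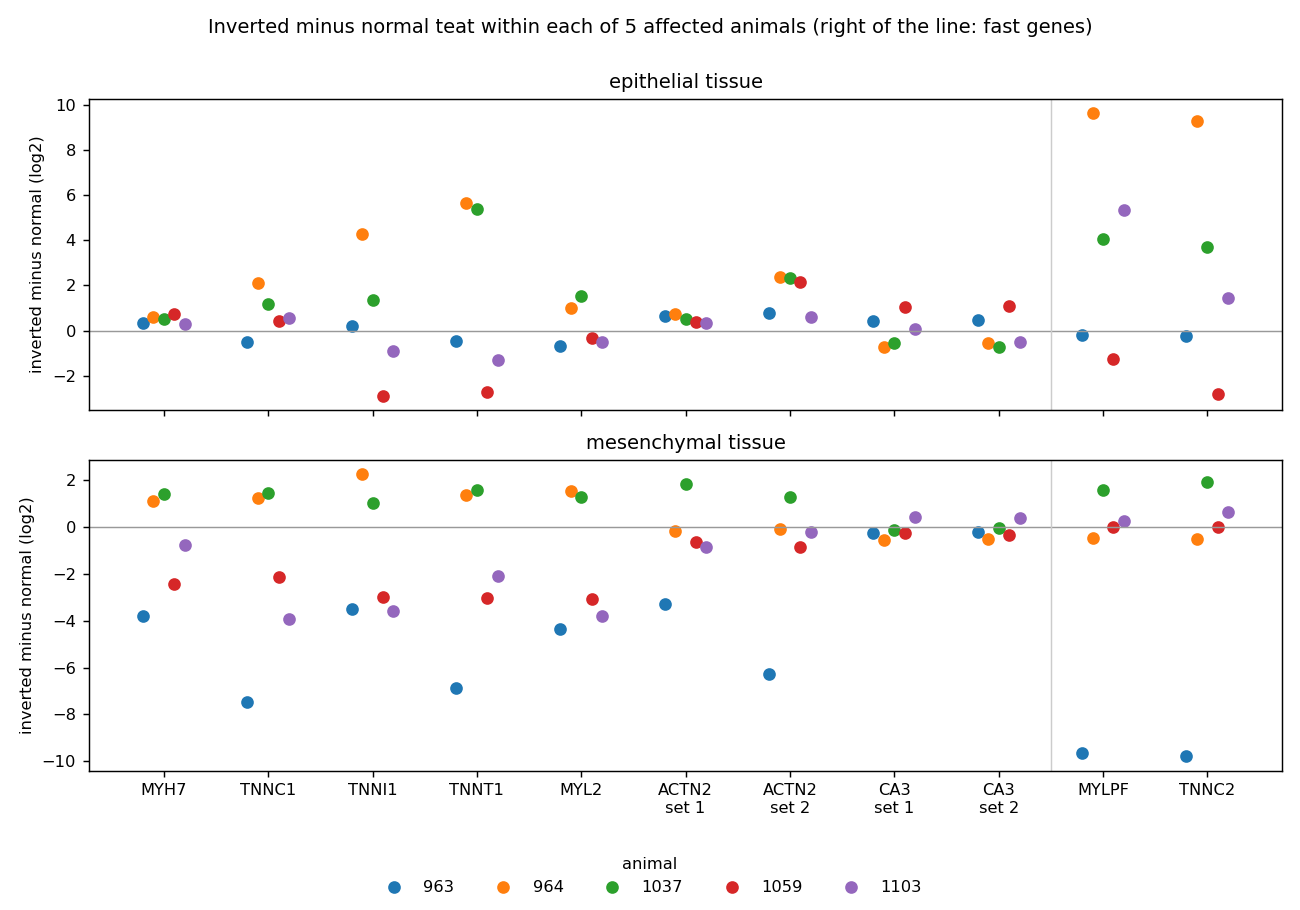
Difference between the inverted and the normal teat (vertical axis, log2) within each of 5 affected animals, for the 9 slow probe sets and, right of the grey line, the fast genes MYLPF and TNNC2, in epithelial tissue (upper panel) and mesenchymal tissue (lower panel). In mesenchymal tissue the 5 slow myosin and troponin genes lie above 0 in animals 964 and 1037 and below 0 in the other 3; in epithelial tissue MYH7 and both ACTN2 probe sets lie above 0 in all 5.

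In epithelial tissue 3 slow genes lay mostly below the background mark. TNNI1 was above its array's 30th percentile on 0 of 15 epithelial arrays, TNNT1 on 2 and MYL2 on 3, so these genes were not tested there. MYH7, TNNC1, both ACTN2 and both CA3 probe sets were tested. For the inverted against the normal teats of affected animals 0% of 17671 probe sets were called, 303 having an unadjusted p under 0.05. For normal teats of affected against non-affected animals 0% of 17671 were called, with 419 at an unadjusted p under 0.05, and for inverted teats of affected against normal teats of non-affected animals 0% of 17671, with 484. No member was called in any of the 3, which again share arrays. The 303 included 1 member, ACTN2 (probe set 1), and the 484 included MYH7 and both ACTN2 probe sets.

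ACTN2 and MYH7 had a repeated direction within animals, which is given as a description. ACTN2 (probe set 1) read 5.59, 5.36, 5.56, 5.26 and 5.42 in epithelial tissue of non-affected animals 950, 957, 1040, 1058 and 1109. In affected animals 963, 964, 1037, 1059 and 1103 it read 6.33, 4.99, 5.50, 5.66 and 5.92 in normal teats and 6.98, 5.73, 6.01, 6.03 and 6.26 in inverted teats. Inverted teats were higher than normal teats in 5 of 5 animals, by 0.34 to 0.74, and every inverted teat lay above every non-affected animal. How many of the 17671 probe sets tested had the same direction in 5 of 5 animals, or the same lack of overlap, was not counted. Neither is thus read as particular to the members. The second probe set of ACTN2 read 7.33, 5.04, 6.15, 4.91 and 6.62 in inverted teats and 0 to 4.52 in non-affected animals, again without overlap, and was higher in the inverted teat in 5 of 5 animals. It lay above the 30th percentile on 5 of 5 inverted arrays, but on 2 of 5 normal arrays of affected and 0 of 5 of non-affected animals. It thus met the filter only through the inverted group, and its non-affected values lay near background, so it is not separate support. MYH7 was higher in 5 of 5 inverted teats by 0.31 to 0.75, but at 5.32 to 5.93 its inverted teats overlapped with non-affected animals at 4.31 to 6.07. The differences between inverted and normal teats were 0.52 ± 0.24 (SE) and 1.64 ± 0.88 (SE) for ACTN2 and 0.50 ± 0.26 (SE) for MYH7, with an adjusted p of 1 for each, and 0.51, 1.49 and 0.58 without the inverted array of animal 1103. Against non-affected animals they were 0.76 ± 0.24 (SE), 3.07 ± 0.88 (SE) and 0.70 ± 0.26 (SE), also with an adjusted p of 1, where 0% of all probe sets were called. The fit had no animal term, so the SE and p-values of inverted against normal teats leave out the pairing. With the animal as a replicate block (consensus correlation 0.40) no member was called either. MYLPF was above the 30th percentile on 4 of 5 inverted epithelial arrays and on 2 of 5 in each normal group, and r between ACTN2 (probe set 1) and MYLPF over the 15 epithelial arrays was 0.49; over the same inverted minus normal comparison the medians were -0.66 for 3 luminal keratins (0 of 3 above 0), -0.93 for 2 keratinocyte markers (0 of 2 above 0) and 0.26 for 6 smooth muscle markers (6 of 6 above 0). The part of these tissues in the ACTN2 and MYH7 differences was not tested.

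TNNC1 stood apart from the other slow genes in epithelial tissue. It read 6.29, 6.08, 5.83, 7.27 and 5.97 in non-affected animals 950, 957, 1040, 1058 and 1109. It read 7.36, 4.89, 5.78, 5.95 and 9.06 in normal and 6.85, 6.98, 6.95, 6.37 and 9.61 in inverted teats of animals 963, 964, 1037, 1059 and 1103. Both teats of animal 1103 were high, and the other 13 arrays lay between 4.89 and 7.36. On these 2 arrays MYLPF was listed at 0 in the normal teat and at 5.33 in the inverted teat, so the TNNC1 signal did not come with a high fast muscle signal. The mean of the 6 measured smooth muscle markers of a list of 8 (ACTG2, CNN1, SMTN, MYOCD, ACTA2 and TAGLN) read 9.86 and 10.78 there, against 8.82 to 9.64 on the other 13 arrays. The inverted epithelial array of animal 1103 also stood apart in other markers: its luminal keratin mean read 6.75, its keratinocyte mean 5.18, its fibroblast mean 9.45 and its endothelial mean 9.13, against 9.27 to 10.66, 8.55 to 10.35, 10.26 to 11.26 and 7.84 to 8.60 on the 13 arrays of other animals. Over the 15 epithelial arrays r between TNNC1 and the smooth muscle mean was 0.75, and without both arrays of animal 1103 it was 0.14, so the relation rests on that animal. Inverted minus normal teats gave 0.75 ± 0.70 (SE) for TNNC1, and 0.18 without the inverted array of animal 1103, both with an adjusted p of 1. Over the 15 mesenchymal arrays r between TNNC1 and the smooth muscle mean was 0.13. The part of smooth muscle in the TNNC1 values was not tested.

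Between tissues of inverted teats, CA3 was the only member gene called, in a comparison of other teats of animals whose normal teats were in view when the members were chosen. CA3 (probe set 1) read 10.42, 7.67, 10.37, 10.23 and 8.98 in epithelial and 11.54, 10.07, 12.07, 12.0 and 11.62 in mesenchymal tissue of inverted teats of animals 963, 964, 1037, 1059 and 1103. Mesenchymal tissue was higher in 5 of 5 animals, by 1.12 to 2.64, with overlap between the groups through animal 964, whose mesenchymal value lay below 3 epithelial ones. CA3 rose by 1.93 ± 0.56 (SE) with limma's adjusted p = 0.0457 for probe set 1 and by 2.21 ± 0.59 (SE) with adjusted p = 0.0353 for probe set 2. Of the 8 member probe sets tested 2 were called, while 12.3% of the 17123 probe sets tested were called in this comparison. The adjusted p of probe set 1 ran from 0.0131 with the animal as a replicate block to 0.164 without animal 1103; both calls were lost under quantile normalization, without the filter on low values, without both MYLPF-poor arrays, and without animal 963, 1037, 1059 or 1103. The total of 2114 called probe sets became 3684 with the replicate block and 1 without animal 1037, 1059 or 1103. Differences of the other genes tested were 1.02 ± 0.86 (SE) for MYH7, 1.5 ± 1.21 (SE) for MYL2, 2.19 ± 1.68 (SE) for TNNT1, 1.49 ± 0.74 (SE) for ACTN2 (probe set 1) and -1.16 ± 1.37 (SE) for TNNC1, with adjusted p from 0.197 to 0.596.

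Markers of fat cells moved with CA3. The 6 measured adipocyte markers of a list of 9 (ADIPOQ, FABP4, LEP, CIDEA, GPD1 and LIPE) were all called higher in mesenchymal than in epithelial tissue of inverted teats, with a median difference of 2.71, beside 12.3% of all probe sets called in either direction. The number called fell to 0 of 6 with quantile normalization and without animal 1037, 1059 or 1103, with medians of 2.30 to 2.79. Their mean ran from 6.64 to 9.83 on epithelial and from 9.10 to 11.48 on mesenchymal arrays, and each of the 6 lay above the 30th percentile on all 30 arrays. CA3 (probe set 1) correlated with this mean at r = 0.95 over 15 epithelial and 0.68 over 15 mesenchymal arrays, and with MYLPF at 0.40 and 0.05. On the 2 MYLPF-poor mesenchymal arrays, where the skeletal muscle markers were at or near background, CA3 read 11.74 and 11.54 and lay within the range of the other 13. In the inverted teat of animal 964, where mesenchymal CA3 was lowest at 10.07, the adipocyte mean was also at its mesenchymal lowest of 9.10 while MYLPF read 12.27. The part of fat cells in the CA3 values was not tested.

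**Figure D5:**
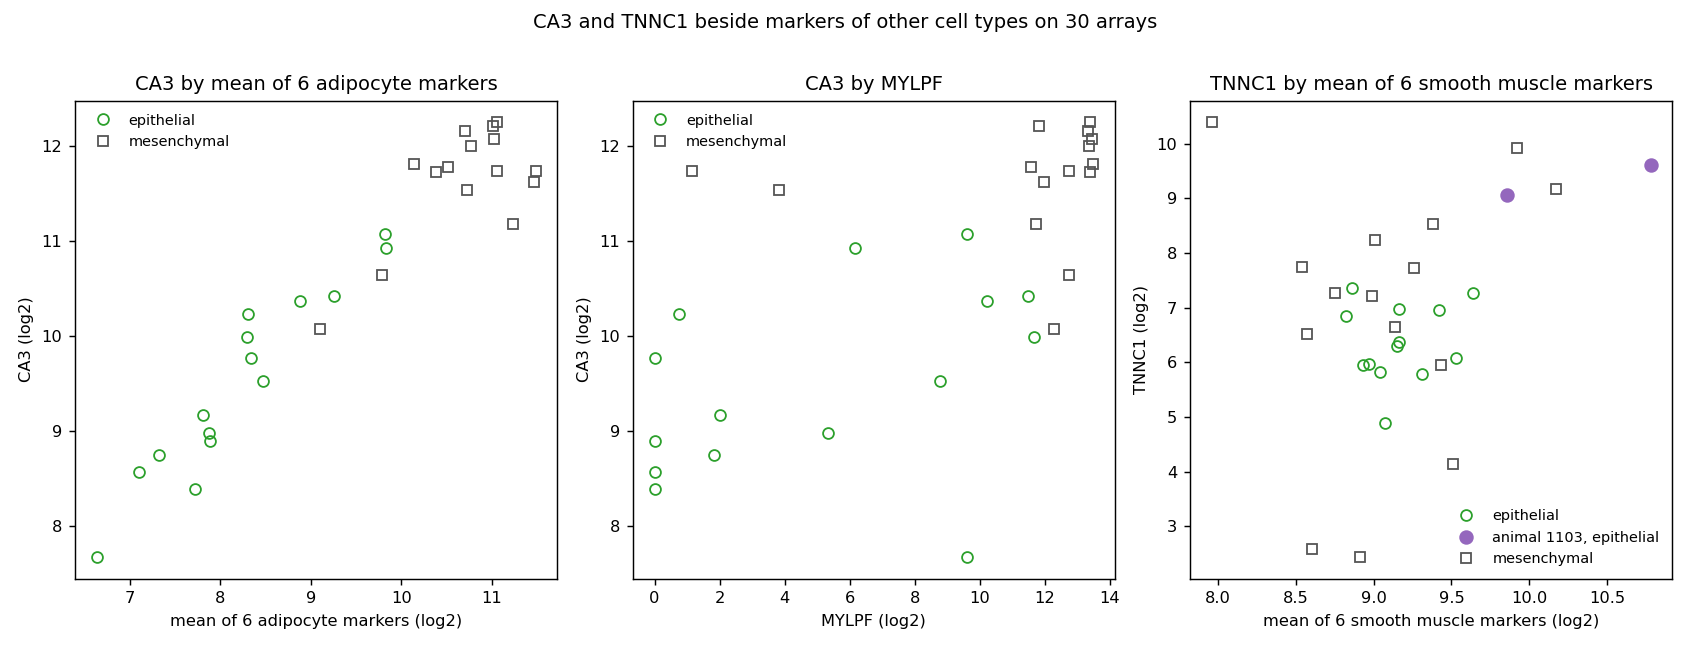
CA3 (log2) against the mean of 6 adipocyte markers (left) and against MYLPF (middle), and TNNC1 (log2) against the mean of 6 smooth muscle markers (right), for 15 epithelial and 15 mesenchymal arrays; each point is an array. CA3 runs with the adipocyte mean (r = 0.95 in epithelial tissue) and both epithelial arrays of animal 1103 lie high for TNNC1, at 9.06 and 9.61.

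In normal teats the higher mesenchymal level of muscle genes was among the values in view when the members were chosen, so nothing is read from whether it passed the test. The mesenchymal minus epithelial difference was 1.90 for MYH7, 2.91 for MYL2, 3.86 for TNNT1, 3.03 for TNNI1, 0.90 for TNNC1, 2.43 and 4.44 for ACTN2, 2.22 and 2.44 for CA3, and 7.52 for MYLPF. The call rule was met by 8 of the 9 probe sets, TNNC1 being the exception, beside 33.5% of the 18295 probe sets tested. TNNI1 and TNNT1 passed the filter on low values through their mesenchymal arrays alone. MYL2 lay above the mark on 0 of 5 normal epithelial arrays of non-affected and 1 of 5 of affected animals. Within animals CA3 (probe set 1) was higher in mesenchymal tissue in 10 of 10 animals and MYH7 in 9 of 10. The difference of the inverted against normal comparison between mesenchymal and epithelial tissue was tested over all 30 arrays: 0% of 18795 probe sets were called, 172 had an unadjusted p under 0.05, and the members ranged from -3.11 ± 2.09 (SE) for TNNT1 to -0.10 for CA3 (probe set 2), each with an adjusted p of 1.

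Other genes of the slow programme, listed by function, gave 0 calls in the teat comparisons and 1 between tissues of inverted teats. Of 25 listed genes 15 had a single-symbol probe set. In mesenchymal tissue 0 of 11 tested were called for inverted against normal teats, 3 lying above and 8 below 0, with a median of -0.08 beside 0.07 over all probe sets. In epithelial tissue 0 of 10 were called, 9 above and 1 below 0, with a median of 0.28 beside 0.00. Between tissues of inverted teats 1 of 11 was called higher, FHL1, a LIM-domain protein of skeletal muscle, at 0.79 ± 0.20 (SE) and adjusted p = 0.029, beside 12.3% of all probe sets. The number called was 0 with quantile normalization, without the filter and without animal 964, 1037, 1059 or 1103, 3 with the replicate block, and 4 without animal 963 or without both MYLPF-poor arrays. In normal teats 8 of 11 met the call rule as higher and 1 as lower in mesenchymal tissue, beside 33.5% of all probe sets. SMPX and SLN, the small muscle protein and the calcium-pump inhibitor sarcolipin, showed larger differences of 3.28 ± 1.52 (SE) and 3.18 ± 1.67 (SE) that did not pass, with adjusted p of 0.17 and 0.222.

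In the comparison of inverted with normal teats no fast gene was called. In mesenchymal tissue inverted minus normal teats gave a median of -1.56 over 14 tested fast genes (2 above, 12 below 0), of -1.24 over 18 genes of the common sarcomere (0 above, 18 below 0) and of -0.17 over 5 developmental and cardiac isoforms. MYLPF itself differed by -9.66 in animal 963, whose inverted teat was MYLPF-poor, and by -0.47 to 1.60 in the other 4 animals. Epithelial markers were higher in inverted teats of this comparison, with medians of 2.42 over 3 luminal keratins (3 of 3 above 0) and 1.20 over 2 keratinocyte markers (2 of 2 above 0), none called. Their part in the muscle differences was not tested. In epithelial tissue the medians were 1.48 over 14 fast genes (13 above, 1 below 0) and 1.08 over 13 sarcomere genes (11 above, 2 below 0). Among 11 genes of oxidative fibre metabolism the mesenchymal median was -0.01. Between tissues of inverted teats 7 of 10 tested oxidative genes were called higher and 0 lower, beside 12.3% of all probe sets. That number was 0 with quantile normalization and without animal 1037, 1059 or 1103, and 7 to 10 under the other alternatives. Those called included FABP3, the fatty acid carrier of heart and slow muscle, at 2.14 ± 0.34 (SE) with adjusted p = 0.0162, LPL, which releases fatty acids from lipoproteins, at 2.13 ± 0.48 (SE) with adjusted p = 0.0214, and PDK4, an inhibitor of pyruvate oxidation, at 1.71 ± 0.30 (SE) with adjusted p = 0.0162. LPL and PDK4 are also active in fat cells. The fast genes (0 of 14 called, median 2.63) and common sarcomere genes (0 of 17, median 2.25) had larger medians there without a call. Without animal 963, whose inverted teat was MYLPF-poor, 9 of 14 and 6 of 15 were called higher, with medians of 4.96 and 3.56. Without both MYLPF-poor arrays 6 of 14 and 7 of 17 were called higher. The replicate block gave 1 of 14 and 0 of 17, and the other alternatives gave 0 for both lists. Of the cardiac markers, NPPA read 3.90 to 5.12, NPPB 3.61 to 5.78 and TNNI3 5.32 to 6.87 over all 30 arrays, and MYL7 and MYH6 were not measured by a single-symbol probe set.

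The genes whose pattern over the 15 mesenchymal arrays was most like each member were taken from 6095 candidates by Pearson r. For MYH7 they were ANKRD1 (r = 0.896), MRLN (0.891) and XIRP1 (0.884), and for TNNT1 ANKRD1 (0.919), XIRP1 (0.878) and MRLN (0.865). ANKRD1, a stress-responsive ankyrin repeat protein of muscle, was also the nearest gene to TNNC1 (0.886) and MYL2 (0.845), and ACTC1, the cardiac actin, to TNNI1 (0.888). ACTN2 was nearest to NRAP (0.971), TPM2 (0.964) and ADSSL1 (0.964), all muscle genes, and CA3 to SLC26A3 (0.892). ANKRD1 ranged from 0.00 to 11.64, XIRP1 from 0.00 to 12.61 and ACTC1 from 1.35 to 10.75 over these arrays. Once the part that MYLPF predicts linearly was removed from each gene, the mean of the 7 members was nearest to FBXO31 (0.852), UXS1 (0.847) and ANKRD1 (0.821), and farthest from TLR1 (-0.787) and C9 (-0.772). Over all 30 arrays the nearest genes to CA3 were LPL (0.965), ME1 (0.954) and ADIPOQ (0.953), genes of lipid storage and of fat cells. Without the 2 MYLPF-poor mesenchymal arrays, the nearest genes to MYH7 and TNNT1 were FBXO31 (0.895 and 0.875), UXS1 (0.881 and 0.866) and GSE1 (0.84 for both). ANKRD1 then stayed among the nearest 3 for TNNC1 (0.843) and MYL2 (0.839) only. The likeness of MYH7 and TNNT1 to ANKRD1, XIRP1 and MRLN as nearest genes thus depended on those arrays. These correlations are highest values picked from many candidates over arrays that share animals, and they carry no test.

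Breed varied with the slow genes on the MYLPF-rich mesenchymal arrays, a split made after the values were seen. The 3 arrays of Pietrain crosses, from 2 animals, read 5.14 to 5.88 for MYH7, against 6.91 to 10.36 on the other 10 arrays. TNNT1 read 2.42 to 4.50 against 6.14 to 10.48, MYL2 1.90 to 5.71 against 6.11 to 10.80, and TNNC1 2.59 to 6.51 against 6.64 to 10.39. The ranges did not overlap for these 4 genes and overlapped for TNNI1 (1.66 to 5.23 against 4.64 to 9.41), for ACTN2, for CA3 and for MYLPF, which read 11.72 to 12.73 against 11.57 to 13.48. The MYLPF median was nonetheless lower in the Pietrain crosses, at 11.98 against 13.35. Relative to MYLPF the ranges overlapped for all 4 genes. MYH7 of the Pietrain crosses read -7.08 to -5.84 against -6.49 to -3.03 on the other arrays. TNNT1 read -10.01 to -7.22 against -7.25 to -2.9, MYL2 -10.08 to -6.01 against -6.63 to -2.59, and TNNC1 -9.4 to -5.21 against -6.17 to -2.99. The lowest Pietrain values of TNNT1, MYL2 and TNNC1 lay below the 30th percentile mark of 4.49 to 4.83. How many of all probe sets the same 3 and 10 arrays would split without overlap was not counted. The lack of overlap is thus not read as particular to these 4 genes. With 2 animals of that cross, breed and individual animals cannot be told apart, and no test was made.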

How the data were processed

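The authors deposited a table of log2 probe set values for 30 arrays; the base was inferred from the values. The submitters' processing notes name the tools GCOS 1.1.1 and PLIER with no role for either, and any normalization between arrays is not given in the sources used here. Array medians lay between 5.71 and 6.04, and 354 to 752 probe sets per array were listed at 0. Values were used as deposited after 124 control probe sets were left out. The number of arrays limits the precision. Symbols came from GEO's platform annotation: 10069 probe sets had 1 symbol, 198 several and 13732 none; the Entrez IDs of all 9 member probe sets were found in a RefSeq gene table. No genome or sequence table was used.

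Epithelial and mesenchymal tissue were fitted apart by limma's lmFit, contrasts.fit and eBayes (version 3.58.1, R 4.3.3; 15 arrays each, 3 contrasts), the tissues in inverted teats over 10 and in normal teats over 20 arrays (status as covariate), and the interaction over 30. Animal was not a term in these fits. P-values were adjusted over all probe sets tested, with a threshold of 0.05. The code was tested on simulated data. Alternatives were quantile normalization, no filter, the animal as a replicate block, each animal left out in turn, other references than MYLPF and, added after seeing the data, leaving out both MYLPF-poor arrays. All 9 probe sets of the 7 genes are named; like genes were the 3 with the highest r. The members and gene lists were chosen with earlier results of these data known.

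Animal numbers in the sample descriptions pair the arrays. After group means were removed, r between the arrays of an animal's normal and inverted teat was 0.15 to 0.29 (epithelial) and 0.08 to 0.42 (mesenchymal); 5 and 4 of the 5 animals correlated best with themselves.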

Additional observations from a re-analysis of the deposited data

Results flagged for a closer look

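Of 54 sets of 5 arrays (9 probe sets in 6 groups), 4 held a highest or lowest array that lay far from the other 4, where chance gives about 1 in 20. TNNC1 in epithelial tissue of inverted teats read 9.61 in animal 1103 and 6.37 to 6.98 in the other 4 animals. CA3 (probe set 1) in mesenchymal tissue of non-affected animals read 12.16 in animal 1058 and 11.73 to 11.78 in the others, a gap that is small beside the other groups' ranges. In mesenchymal tissue of inverted teats animal 964 was low for both CA3 probe sets, at 10.07 against 11.54 to 12.07 for probe set 1 and at 9.78 against 11.47 to 11.87 for probe set 2.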

How the results depend on the processing

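No member was called in any teat comparison under the alternatives run, and all 323 counts outside those given here stayed within 1.5 times the value reported. The tissue comparison of inverted teats was the exception. Its 2114 calls became 2 with quantile normalization, 1090 without the filter on low values, 3684 with the animal as a replicate block (consensus correlation 0.25), and 1 to 1490 when an animal was left out, with 1 call each without animal 1037, 1059 or 1103. The 2 CA3 calls became 0 with quantile normalization (1.51 and 1.80), without the filter (1.93 and 2.21) and without both MYLPF-poor mesenchymal arrays (1.91 and 2.17), and 0 to 2 when an animal was left out. Both remained with the replicate block, which changed no other member's call. For normal mesenchymal teats of affected against non-affected animals 0 to 1 probe sets were called, the 1 without animal 957.

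Signs of small differences changed when an animal was left out. For inverted minus normal teats in epithelial tissue CA3 ran from -0.19 to 0.25 (probe set 1) and from -0.33 to 0.12 (probe set 2), the latter reaching 0.22 without the inverted array of animal 1103. In mesenchymal tissue ACTN2 ran from -1.24 to 0.041 (probe set 1) and from -1.86 to 0.036 (probe set 2), both positive without animal 963. The difference between tissues ran from -0.38 to 0.060 and from -0.34 to 0.23 for the CA3 probe sets, and TNNC1 between tissues of inverted teats from -2.0 to 0.31, positive without animal 1103. The cause of these changes was not tested. Probe sets near background, such as TNNI1 and TNNT1 in epithelial tissue, allow no comparison there.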
